A study of Mus musculus with 16 samples.

Results

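Gad1, Slc32a1 and Sst are 3 genes of inhibitory transmission: the enzyme that makes GABA, the transporter that loads it into vesicles, and the neuropeptide somatostatin. They were taken by name as inhibitory interneuron transmitter genes, Gad1 and Slc32a1 from the ipsilesional table and Sst from the contralesional one. They are 3 of the 661 genes that either table lists. RNA sequencing covered motor cortex (primary, M1) on the lesion side (ipsilesional) and on the opposite side (contralesional) in 8 C57Bl6 mice. In each hemisphere 3 libraries came from spontaneously recovered mice (animals 6, 23 and 28) and 5 from non-recovered mice (animals 17, 19, 20, 21 and 29), as judged on a horizontal rotating beam. All 8 animals had a stroke, so neither group is an uninjured control. The sources used here do not give the way the stroke was made, the time of sampling, or sex and age. For animals 6 and 23, both recovered, the titles and the description codes disagree on which contralesional library belongs to which animal. Animals are named by title here, and the group comparison is the same either way.

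GABA is the main inhibitory transmitter of the adult cortex. Gad1 encodes GAD67, a glutamate decarboxylase that supplies most GABA for general use in the neuron, while its relative GAD65 is tied more closely to nerve terminals. Slc32a1 encodes VGAT, which fills synaptic vesicles with GABA and is needed for its release. Sst encodes the precursor of somatostatin, which marks a class of cortical interneurons that mainly contact the dendrites of pyramidal neurons. Gad1 and Slc32a1 are shared by cortical inhibitory neurons of every class and are also made by striatal projection neurons, so they mark no single interneuron type.

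Gad1 (ENSMUSG00000070880.10) lies on mouse chromosome 2, from 70553072 to 70602014 on the plus strand of GRCm38, the assembly behind mm10, in 21 exon blocks. Slc32a1 (ENSMUSG00000037771.11) is on the same chromosome, from 158610767 to 158615748 on the plus strand, in 2 exon blocks. Sst (ENSMUSG00000004366.4) is on chromosome 16, from 23889573 to 23890958 on the minus strand, also in 2 exon blocks. An antisense gene on the minus strand, Gm14205, shares 697 exonic bases with Slc32a1. The library kit keeps strand, but whether the authors counted by strand is not given in the sources used here, so Slc32a1 reads may include some from Gm14205. The antisense gene Gad1os overlaps the Gad1 locus and shares 0 exonic bases with it.

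The somatostatin message is short, and 2 stretches of its gene show what is being counted and how the gene is known to be controlled. The first stretch is the end of the 116-codon coding sequence (GENCODE M21 transcript, GRCm38), given as its last 28 codons without the stop codon. These encode the hormone somatostatin-28, and the capitals mark the last 14 codons, which encode somatostatin-14. The second stretch holds the cAMP response element, the site through which cAMP signalling is known to drive somatostatin transcription, marked in capitals. It comes from the RefSeq promoter table (GRCm38.p6, chr16:23890874-23890903, minus strand), and the element begins 48 bases before the RefSeq start. The GENCODE gene given above starts farther out, at 23890958, so by that annotation the stretch lies inside the gene.
Sst coding end: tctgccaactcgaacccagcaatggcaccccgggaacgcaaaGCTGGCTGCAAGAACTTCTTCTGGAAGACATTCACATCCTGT
Sst cAMP response element: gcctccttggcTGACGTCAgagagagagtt
The element searched for was TGACGTCA, which reads the same on both strands. In the 250 bases before the start, 508 of 32851 RefSeq promoters (1.55%) held it, among them that of Sst. It was not in that window of Gad1 or Slc32a1. A match is a description of sequence only.

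The deposited values are log2 CPM (counts per 1000000 reads), one per gene and library. Each table holds a selection made by the authors on the same libraries, 263 genes in the ipsilesional and 417 in the contralesional table. The selection shows in the differences: the listed genes nearest to 0 differed by 0.13 and -0.13 on the log2 scale in the ipsilesional table, and by 0.12 and -0.13 in the contralesional one. Gad1, Slc32a1 and Sst were therefore bound to differ to stand in a table at all, and a difference in them is no independent evidence. Gad1 and Slc32a1 were not listed in the contralesional table, nor Sst in the ipsilesional one, so there were no values for them there to analyse. Absence from a table is not a measured lack of difference. Library totals recovered from the values lay between 19116419 and 26310885 in ipsilesional and between 17972791 and 27895465 in contralesional libraries. Differences below subtract the non-recovered mean of log2 CPM from the recovered mean, and carry a standard error (SE) from limma, a linear model fitted over every listed gene. A gene was called at a Benjamini-Hochberg adjusted p under 0.05. The adjustment ran over genes already selected on these same libraries, so an adjusted p, passed or not, is conditional on that selection. The description codes share their first parts among animals 19, 20 and 21, and between the recovered animal 28 and the non-recovered animal 29. The libraries titled ipsilesional animal 6 and contralesional animal 23 carry a code that starts unlike all others. What these parts stand for is not given, so they were not used as batches. The p-values treat the animals as independent, which could not be checked.

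Gad1 was 1.17-fold higher on average in the ipsilesional cortex of recovered mice, but it did not pass the adjusted threshold. Its level was 377 CPM in animal 6, 347 CPM in animal 23 and 400.1 CPM in animal 28 of the recovered group. In the non-recovered group it was 354 CPM in animal 17, 291 CPM in animal 19, 339 CPM in animal 20, 312 CPM in animal 21 and 311 CPM in animal 29. Animals 28 and 6 stood above every non-recovered animal, while the recovered animal 23 lay just below the non-recovered animal 17, so the groups overlapped. The mean was 8.55 ± 0.10 log2 CPM in recovered mice (SD, n = 3) and 8.32 ± 0.11 log2 CPM in non-recovered mice (SD, n = 5). The difference was 0.22 ± 0.08 log2 units, and the 95% interval of the fold ran from 1.03 to 1.33. By limma the unadjusted p was 0.0248 and the adjusted p 0.0601, and an exact 2-sided permutation test over the 8 libraries gave p = 0.0714. With 5565 to 9304 reads per library, counting error was at most 0.02 log2 units, well under the spread between animals.

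Slc32a1 was higher in recovered mice by a smaller amount, 1.11-fold on average, and did not pass the adjusted threshold either. It reached 97.7 CPM in animal 6, 93.5 CPM in animal 23 and 103 CPM in animal 28 of the recovered group. The non-recovered group gave 91.0 CPM in animal 17, 84.5 CPM in animal 19, 93.5 CPM in animal 20, 90.3 CPM in animal 21 and 84.2 CPM in animal 29. Each recovered animal was above each non-recovered one, but animals 23 and 20 differed by only 0.0010 log2 units, against a counting error of 0.03 for each. Recovered mice averaged 6.62 ± 0.07 log2 CPM (SD, n = 3) and non-recovered mice 6.47 ± 0.07 log2 CPM (SD, n = 5). The difference was 0.15 ± 0.06 log2 units, with a 95% interval of 0.01 to 0.29. The limma p was 0.0435 unadjusted and 0.0663 adjusted. The exact 2-sided permutation p was 0.0357, the smallest that this test can give with 3 against 5 animals.

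**Figure D1:**
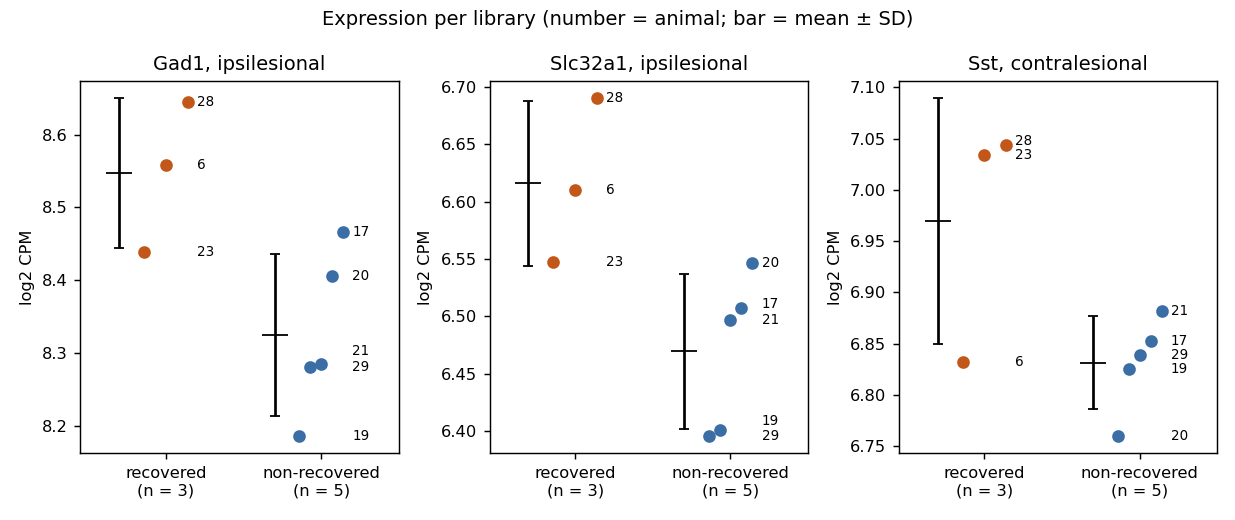
Log2 CPM of Gad1 and Slc32a1 in ipsilesional cortex and of Sst in contralesional cortex, 1 point per library with its animal number, recovered left of non-recovered; bars are mean ± SD. Animal 28 is highest in all 3 panels, and the groups overlap for Gad1 and Sst but not, by 0.0010 log2 units, for Slc32a1; the y axes do not start at 0.

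Read against their table, neither gene stood out. An unadjusted limma p under 0.05 was met by 196 of 263 ipsilesional genes (74.5%), and by 98 of 263 (37.3%) with the recovered group higher. An adjusted p under 0.05 was met by 3 of 263 (1.14%), with neither Gad1 nor Slc32a1 among them. The groups did not overlap for 111 genes (42.2%), of which 55 (20.9%), Slc32a1 included, were higher in recovered mice. Of the 131 genes (49.8%) that were higher in recovered mice, Gad1 was 79th by size of difference, and Slc32a1 was 118th, close to the inner edge of the selection. Ranked by p over the whole table, Gad1 was 107th and Slc32a1 170th. With each library centred on the median deviation of the listed genes, 114 genes were higher and 70 lower at an unadjusted p under 0.05, against 98 and 98 as deposited. Under that centring Gad1 and Slc32a1 both passed, with limma adjusted p = 0.0487 and 0.0497. They were among 78 of 263 genes that did so, 49 of them higher in recovered mice. Across the alternatives other than left-out libraries the adjusted p ran from 0.0487 to 1 for Gad1 and from 0.0488 to 1 for Slc32a1.

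**Figure D2:**
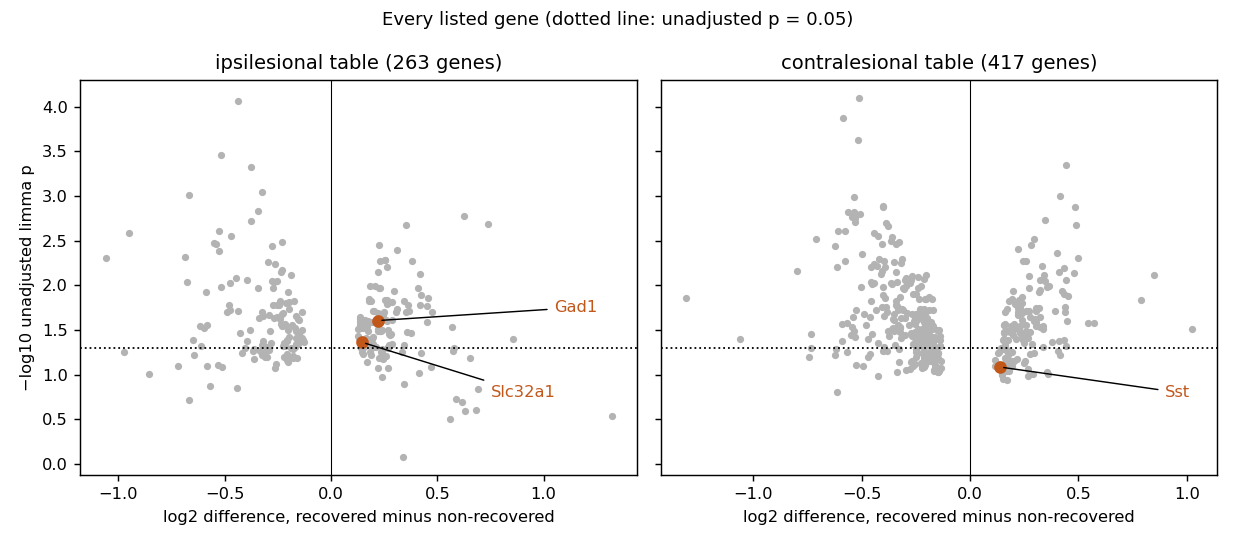
Difference between recovered and non-recovered mice (x axis, log2) against the −log10 of the unadjusted limma p (y axis) for every listed gene of each hemisphere. Slc32a1 at 0.15 and Sst at 0.14 lie near the inner edge of the genes that are higher in recovered mice, and Gad1 at 0.22 lies farther in; Sst loses its direction with the exonic length trend removed.

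The level of the enzyme relative to the transporter lay between 3.45 and 3.89 in the 8 libraries. Gad1 CPM divided by Slc32a1 CPM was 3.86 in animal 6, 3.71 in animal 23 and 3.87 in animal 28 of the recovered group. In the non-recovered group the ratio was 3.89 in animal 17, 3.45 in animal 19, 3.63 in animal 20, 3.45 in animal 21 and 3.70 in animal 29. The ratio averaged 3.81 ± 0.09 in recovered mice (SD, n = 3) and 3.62 ± 0.18 in non-recovered mice (SD, n = 5), and the non-recovered animal 17 had the highest of all. On the log2 scale it differed by 0.08, which is the difference of Gad1 less that of Slc32a1, and the groups overlapped. Per kilobase of annotated exonic sequence, Gad1 stood at 49.1 ± 3.48 CPM in recovered and 42.1 ± 3.25 CPM in non-recovered mice. On the same scale Slc32a1 stood at 35.1 ± 1.75 CPM in recovered and 31.7 ± 1.48 CPM in non-recovered mice (SD, n = 3 and 5 for each gene). Exonic length counts every annotated exon, so it can exceed the length of the transcripts actually made, above all for Gad1 with its 8 annotated transcripts.

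Sst, in the cortex opposite the lesion, averaged 1.10-fold higher in recovered mice, a direction set by 2 of the 3 animals and lost once a trend on gene length was removed. Its level was 114 CPM in animal 6, 131 CPM in animal 23 and 132 CPM in animal 28 of the recovered group. In non-recovered mice it was 116 CPM in animal 17, 113 CPM in animal 19, 108 CPM in animal 20, 118 CPM in animal 21 and 114 CPM in animal 29. Animals 23 and 28 stood well clear of all 5 non-recovered animals, whereas animal 6 lay in their midst, below 3 of them. The mean was 6.97 ± 0.12 log2 CPM in recovered mice (SD, n = 3) and 6.83 ± 0.05 log2 CPM in non-recovered mice (SD, n = 5). The difference was 0.14 ± 0.07 log2 units, and the 95% interval of the fold, 0.985 to 1.23, included no difference. The limma p was 0.0824 unadjusted and 0.0887 adjusted, and the exact 2-sided permutation p was 0.143. At 2370 to 3352 reads per library, counting error was at most 0.03 log2 units.

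The contralesional table as a whole leaned the other way. There 147 of 417 genes (35.3%) were higher in recovered mice and 270 lower, with a median difference of -0.19. Sst was 140th of the 147 higher genes by size, and 387th of 417 by p. An unadjusted limma p under 0.05 was met by 306 genes (73.4%), 107 (25.7%) of them higher and 199 lower, and Sst was not among them. An adjusted p under 0.05 was met by 33 (7.91%). The groups did not overlap for 180 genes (43.2%), and Sst was not one of them. At that unadjusted p the split turned to 126 higher and 59 lower after quantile normalization, to 147 and 56 after centring on the median deviation, and to 124 and 65 with a linear trend on exonic length removed from each library. Sst has 721 exonic bases, and only 3 of the 415 listed genes with a known length are shorter, against a median of 5236. With the length trend removed its difference was -0.012 ± 0.06 (limma adjusted p = 0.899), and with centring on the median deviation it was 0.25 ± 0.08 (adjusted p = 0.0347). With that centring 152 of the 417 genes had an adjusted p under 0.05, 129 of them higher in recovered mice. Over the alternatives other than left-out libraries the adjusted p of Sst ran from 0.0347 to 1. Whether length or normalization accounts for the difference in Sst was not tested.

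Of the 5 somatostatin receptors, Sstr2 stood in the contralesional table. It encodes an inhibitory G protein-coupled receptor of somatostatin that is widely expressed in cortex. In recovered mice it measured 13.4 CPM in animal 6, 17.0 CPM in animal 23 and 25.1 CPM in animal 28. In non-recovered mice it measured 11.9 CPM in animal 17, 17.4 CPM in animal 19, 13.6 CPM in animals 20 and 21, and 13.9 CPM in animal 29. Animal 28 was again the highest, but the groups overlapped, with the non-recovered animal 19 second of all 8. The difference of 0.35 ± 0.19 log2 units had a limma adjusted p of 0.0967, and was 0.11 without animal 28 and 0.56 without animal 6.

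All 3 genes were highest in animal 28, and their group differences leaned on it to different degrees. Without animal 28 the difference was 0.17 for Gad1, 0.11 for Slc32a1 and 0.10 for Sst, with unadjusted limma p of 0.0974, 0.155 and 0.256. Without animal 23 it was 0.28 for Gad1, 0.18 for Slc32a1 and 0.11 for Sst. Without animal 6 it was 0.22 for Gad1, 0.15 for Slc32a1 and 0.21 for Sst, with unadjusted limma p of 0.0592, 0.0785 and 0.0146. Over the 8 refits of each gene the unadjusted p was under 0.05 in 6 for Gad1, 2 for Slc32a1 and 1 for Sst. Leaving out any single non-recovered animal kept the difference between 0.19 and 0.26 for Gad1, between 0.13 and 0.17 for Slc32a1, and between 0.12 and 0.15 for Sst. None of these 24 refits with 1 library left out took the difference below 0 or gave an adjusted p under 0.05.

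**Figure D3:**
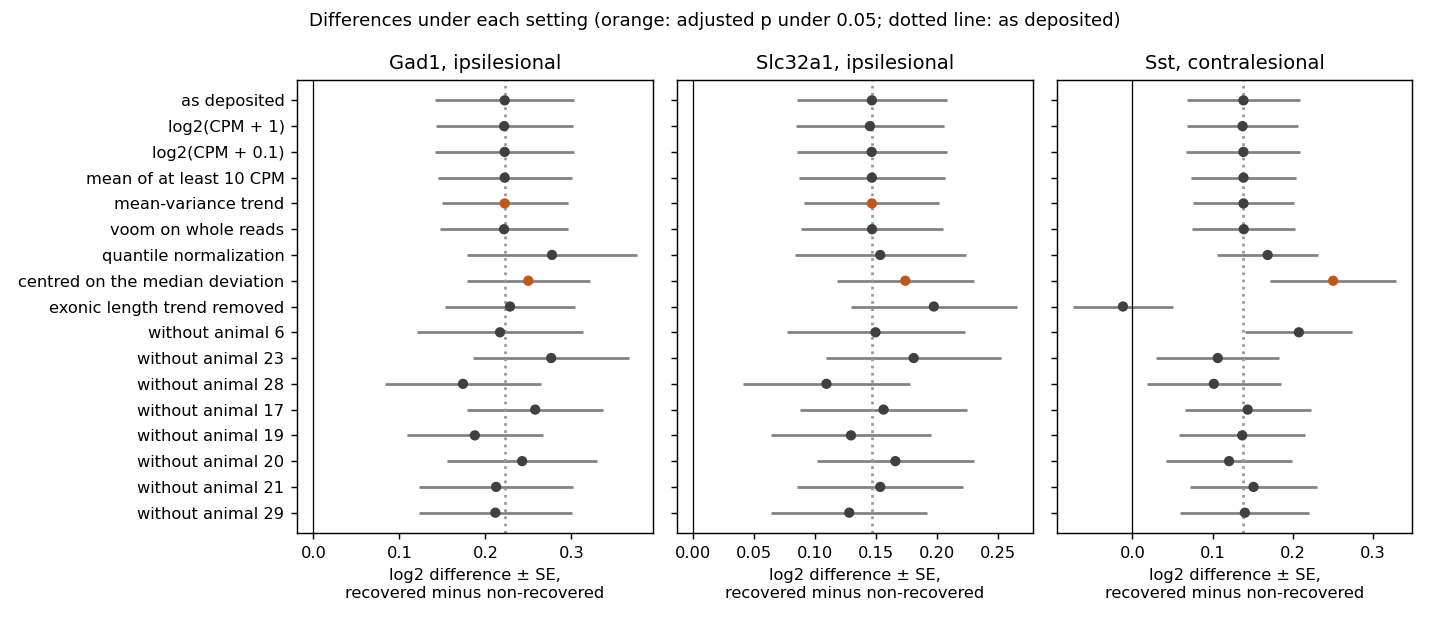
Difference between recovered and non-recovered mice (x axis, log2, ± SE) for Gad1, Slc32a1 and Sst under each setting (rows); orange points have a limma adjusted p under 0.05, and the dotted line marks the deposited values. Gad1 stays between 0.17 and 0.28 and Slc32a1 between 0.11 and 0.20, while Sst runs from -0.012 with the length trend removed to 0.25 with centring on the median deviation.

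Other genes of the pathway were few in the tables. The tables list 263 (ipsilesional) and 417 (contralesional) genes, against 21951 annotated protein-coding genes. At that share, gene lists of the sizes below would hold few or 0 listed genes, so absence from a table is not evidence of no difference. Of 11 genes for GABA synthesis, breakdown and transport, Gad1 and Slc32a1 were the 2 listed in ipsilesional cortex and 0 were listed in contralesional cortex. They were both higher, with a median difference of 0.18. The median over the whole ipsilesional table, -0.13, is a poor yardstick: with 131 genes higher and 132 lower it is the negative difference nearest to 0, and over the 189 genes that averaged at least 10 CPM it was 0.14. Of 24 genes for GABA receptors, their scaffold and the chloride transporters that set the effect of GABA, 0 were listed in either table. Of 22 genes that mark other interneuron classes, including parvalbumin and VIP cells, 0 were listed. Of 16 genes of somatostatin interneurons and somatostatin receptors, Sst and Sstr2 were listed in contralesional cortex. Both were higher as deposited (median difference 0.25), though Sst not once the length trend is removed. The median of the 2 genes was 0.11 without animal 28 and 0.38 without animal 6. The median over that table, -0.19, is a poor yardstick too: 147 of its 417 genes (35.3%) were higher, so it falls among the lower ones. The ipsilesional table listed 1 of the 16, the calcium-binding protein gene Calb1, which pyramidal neurons of the upper layers also express. Calb1 went the other way, with 89.9 to 112 CPM in recovered and 111 to 137 CPM in non-recovered mice. Its difference was -0.23 ± 0.10 (limma adjusted p = 0.0663), and -0.13 without animal 6.

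Genes of fast-spiking neurons and large axons, with parvalbumin interneurons among their main sources, were listed beside the lesion. Of 17 such genes 7 were in the ipsilesional table and 0 in the contralesional one. For comparison, 263 genes are listed for ipsilesional cortex, against 21951 annotated protein-coding genes. The list of 17 was chosen with earlier results of these data known, so the count of 7 is no independent evidence. All 7 were higher in recovered mice, with a median difference of 0.27. Among all 263 listed ipsilesional genes, 131 (49.8%) were higher. An unadjusted limma p under 0.05 was met by 6 of the 7 and an adjusted one by 0, in a table where 37.3% met the unadjusted one with recovered mice higher. The adjusted one was met by 7 with a mean-variance trend, by 2 after centring, and by 1 each after quantile normalization, without animal 6 and without animal 29. Without animal 23 the count of 6 was 1, without animal 28 it was 2, without 17, 19 or 21 it was 3, without 20 or 29 it was 5, and without animal 6 it was 7. These counts without a library were added after the data had been seen. The whole table had 98 of 263 genes higher at that unadjusted p as deposited. It had 52, 54 and 70 without animals 23, 28 and 6. Without animals 17, 19 and 21 it had 76, 70 and 64, and without 20 and 29 it had 66 and 71. Syt2, a calcium sensor of fast release, had 115 to 159 CPM in recovered and 90.6 to 125 CPM in non-recovered mice (0.36 ± 0.14, adjusted p = 0.0616). Nefh, the heavy neurofilament chain, had 114 to 123 CPM in recovered and 86.4 to 109 CPM in non-recovered mice, without overlap (0.31 ± 0.08, adjusted p = 0.0532). Kcns3, a potassium channel subunit of parvalbumin cells, had 9.06 to 10.5 CPM in recovered and 6.65 to 8.48 CPM in non-recovered mice, also without overlap (0.29 ± 0.09, adjusted p = 0.0600). The other 4 were the channel genes Kcna1, Scn1a and Scn4b and the neurofilament gene Nefm, with differences from 0.22 to 0.27.

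**Figure D4:**
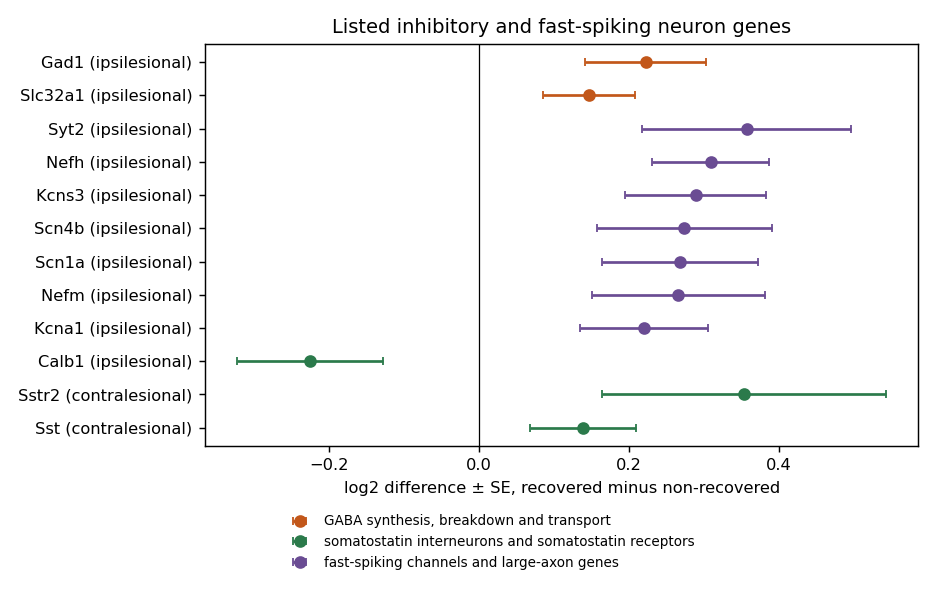
Difference between recovered and non-recovered mice (x axis, log2, ± SE) for the listed genes of GABA handling, somatostatin interneurons and fast-spiking neurons, with the hemisphere of each. All are higher in recovered mice except Calb1 at -0.23, with Sst turning to -0.012 once the length trend is removed, and none has an adjusted p under 0.05.

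In bulk tissue, fewer cells of a type and less RNA per cell cannot be told apart, and markers of other cells moved beside these genes. None of 12 excitatory neuron markers was listed, so the cortical label was not checked here, nor was any of 9 astrocyte or 7 endothelial markers. With only 263 and 417 genes listed, such absence is not evidence of no difference. Of 11 oligodendrocyte lineage markers 1 was listed, Bmp4 in ipsilesional cortex. It had 2.83 to 3.25 CPM in recovered and 3.01 to 4.91 CPM in non-recovered mice (-0.47 ± 0.16, limma adjusted p = 0.0601). Of 18 striatal projection neuron markers, a cell type that also makes Gad1 and Slc32a1, 3 were listed in ipsilesional cortex. Their summed level was 62.7 to 84.9 CPM in recovered and 73.6 to 90.8 CPM in non-recovered mice, with Pde10a and Lrrc10b lower, Chrm4 higher and none at 0. In contralesional cortex 11 of the 18 were listed, all lower in recovered mice, as were 270 of all 417 genes. An unadjusted limma p under 0.05 was met by 6 of the 11, against 47.7% of the table in that direction, and an adjusted one by 1. Their summed level was 344 to 398 CPM in recovered and 413 to 483 CPM in non-recovered mice. The largest parts of that sum were Foxp1, with 133 to 168 CPM in recovered and 158 to 181 CPM in non-recovered mice, and Rasd2. Rasd2 had 83.8 to 106 CPM in recovered and 101 to 109 CPM in non-recovered mice. Drd2, Gpr6 and Adora2a were at most 5.64 CPM in any library. Of 13 markers of microglia and macrophages 3 (Itgam, C3 and Gpnmb) were listed in ipsilesional cortex, with a sum of 148 CPM in the recovered animal 6 and 8.10 to 20.8 CPM in the 7 other libraries. Without animal 6 the differences of Gad1 and Slc32a1 were 0.22 and 0.15, with unadjusted limma p of 0.0592 and 0.0785. Of 14 meningeal and mural markers 4 were listed in ipsilesional cortex, with sums of 353 to 644 CPM in recovered and 419.5 to 875 CPM in non-recovered mice. Nearly all of that was Ptgds, with 338 to 619 CPM in recovered and 401 to 840 CPM in non-recovered mice. In contralesional cortex 3 were listed, with sums of 66.2 to 90.9 CPM in recovered and 88.3 to 105 CPM in non-recovered mice. Most of that was Fn1, with 48.3 to 68.2 CPM in recovered and 61.6 to 74.5 CPM in non-recovered mice. The part of the striatal, oligodendrocyte, macrophage and meningeal markers in the results was not tested.

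The genes most like each of the 3 were sought in its own table. Likeness was the root mean square difference between 2 genes' deviations from their means over the 8 libraries, so smaller is more alike. For Gad1 the 5 nearest of 262 genes were Osbpl5 (0.055 log2 units), C2cd2 (0.061), Slc32a1 (0.066), the sodium-calcium exchanger gene Slc8a3 (0.066) and Galntl6 (0.072), against a median of 0.232 over all 262. Slc32a1 was thus the 3rd most alike to Gad1. For Slc32a1 the nearest were Nap1l2 (0.049), C2cd2 (0.050), Lrp12 (0.055), the metalloprotease gene Adam9 (0.056) and Slc8a3 (0.062), against a median of 0.200, and Gad1 was 9th. For Sst the 5 nearest of 416 genes were the glycolytic enzyme gene Eno1 (0.038), the immunoproteasome subunit gene Psmb10 (0.047), Dhrs4 (0.060), the glycolytic enzyme gene Aldoa (0.060) and Gfra4 (0.060), against a median of 0.213. This measure includes the group difference by which the tables were selected, and genes of small variation are alike by it whatever their shape.

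**Figure D5:**
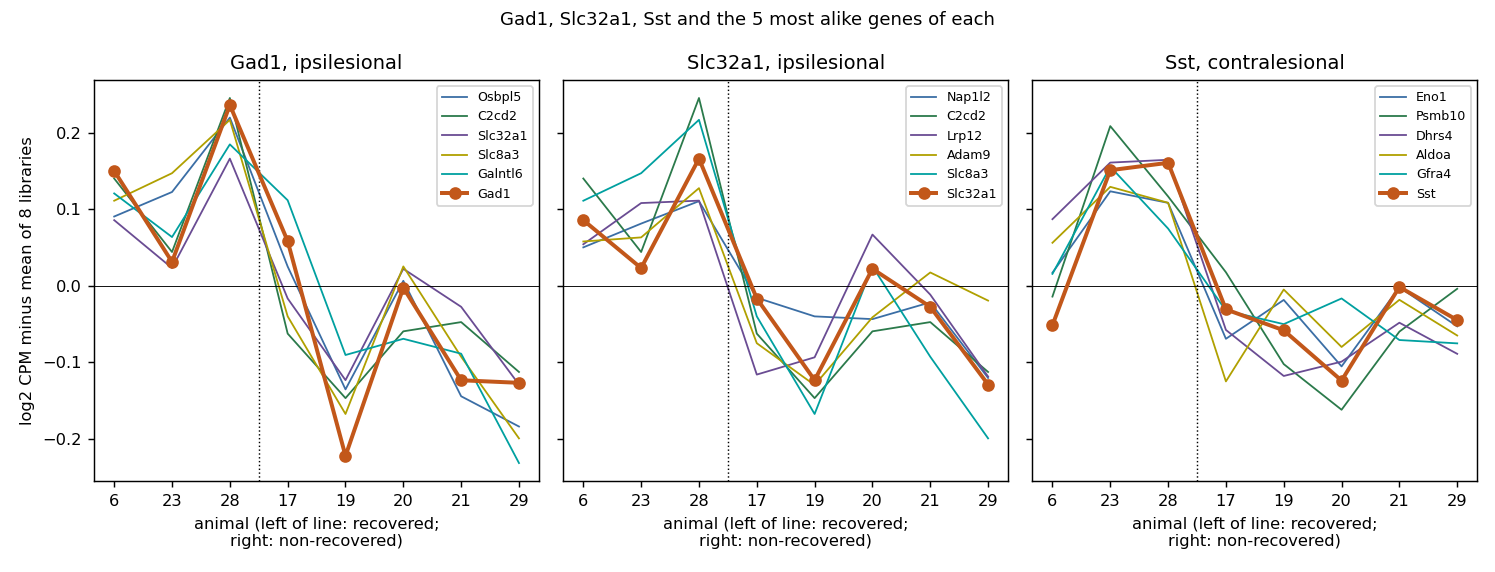
Log2 CPM minus the mean over the 8 libraries of a hemisphere (y axis) by animal (x axis) for Gad1, Slc32a1 and Sst (thick orange) and the 5 most alike genes of each (thin lines), recovered animals left of the dotted line. Gad1 and Slc32a1 peak in animal 28 and are lowest in animals 19 and 29, while Sst is high in animals 23 and 28 but not in animal 6.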

How the data were processed

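Per the labels' protocols, RNA was extracted with Trizol and RNeasy, with RNA integrity numbers of 7 to 9, and made into TruSeq Stranded mRNA libraries. Named without roles, per the submitters' processing notes, are mm10, STAR 2.5.1b, Trimmomatic 0.38, edgeR and bcl2fastq. The sources used here do not give the counter, the annotation or the rule that selected the genes. The authors deposited log2 CPM values, one table per hemisphere. The tables were treated as separate normalizations and levels were compared only within one. Undoing the log and a prior count of 2 with a library total gave whole reads for 100% of values (within 0.01). Those totals may include a normalization factor.

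Recovered and non-recovered libraries, grouped by title, were compared by limma 3.58.1 (R 4.3.3) over all listed genes, without a filter or further pseudocount, with Benjamini-Hochberg adjustment. Permutation tests used scipy 1.17.1. The fit was tested on simulated data. Lengths and coordinates came from GENCODE M21. Alternatives were other pseudocounts, a filter, 2 scalings, a variance trend, voom, a length correction and left-out libraries. Genes and lists were chosen with earlier results of these data known. Named genes are Gad1, Slc32a1, Sst, listed members of fixed lists and the 5 most alike genes of each.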

Additional observations from a re-analysis of the deposited data

Results flagged for a closer look

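In 3 of 19 groups of 5 non-recovered libraries examined, 1 library lay far from the other 4 for its group's range, where chance gives about 1 in 20. Kcns3 in ipsilesional cortex was 2.73 log2 CPM in animal 21, against 2.99 to 3.08 in the other 4. Scn1a in ipsilesional cortex was 7.88 log2 CPM in animal 20, against 7.61 to 7.67. The summed meningeal and mural markers in ipsilesional cortex were 419.5 CPM in animal 19, against 819 to 875 CPM. Nearly all of that sum was 1 gene, Ptgds, with 401 CPM in animal 19 against 789 to 840 CPM. In the non-recovered groups of Gad1, Slc32a1 and Sst no library was that far apart, and recovered groups, with 3 libraries each, were not examined in this way. Animal 19 was also lowest of all 8 for Gad1 and 7th of 8 for Slc32a1; without it their differences were 0.19 and 0.13.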

How the results depend on the processing

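Of 17 alternatives, 3 (the filter, the variance trend and adjustment over all protein-coding genes) leave a difference as it is by construction. Under the other 14 Gad1 and Slc32a1 kept their direction, and Sst under 13. Removing the length trend took Sst to -0.012 ± 0.06 (SE, limma adjusted p = 0.899), which lies within its error of 0. That trend was fitted over the listed genes only, and Sst lies near its short end. The cause was not tested. Centring on the median deviation brought all 3 past the adjusted threshold, at 0.25 for Gad1, 0.17 for Slc32a1 and 0.25 for Sst, and the mean-variance trend did so for Gad1 at 0.22 and Slc32a1 at 0.15. The median of all contralesional genes, -0.19 as deposited, was -0.08 after centring and -0.016 without the length trend, and that of ipsilesional genes, -0.13 as deposited, was -0.01 after quantile normalization and 0.14 with the 10 CPM filter; quantile normalization gave 0.28 for Gad1, 0.15 for Slc32a1 and 0.17 for Sst. Taken over 21951 annotated protein-coding genes, the adjusted p was 1 for each. Leaving out 1 library gave 0.17 to 0.28 for Gad1, 0.11 to 0.18 for Slc32a1 and 0.10 to 0.21 for Sst, lowest without animal 28 for each. The number of genes at an unadjusted limma p under 0.05 ranged from 109 (without animal 23) to 159 for ipsilesional cortex with 1 library left out, and was 123 without animal 6. For contralesional cortex that range was 159 (without animal 23) to 272. There it was 177 with a filter at 10 CPM, 185 after quantile normalization, 203 after centring and 189 without the length trend; the filter tested only 232 genes. Genes at an adjusted p under 0.05 numbered 3 and 33 as deposited (ipsilesional and contralesional), 1 and 3 on log2(CPM + 1), 1 and 1 with the filter, 39 and 77 after quantile normalization, 78 and 152 after centring, 189 and 0 with the variance trend, 0 and 0 with voom, and 1 and 96 without the length trend. With 1 library left out the ipsilesional number was 0 without animal 17, 21 or 23, 1 without 20, and 6, 7, 13 and 18 without 6, 29, 19 and 28. The contralesional one was 0, 1, 3, 6, 10 and 16 without animal 17, 20, 19, 28, 21 and 23, and 58 and 74 without 6 and 29. No paired analysis was possible because recovered and non-recovered libraries of a hemisphere come from different animals. At these depths counting error was below the spread between animals for all 3 genes, but above the 0.0010 that kept the Slc32a1 groups apart.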

Other observations

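With deviations taken from the group means, so that the group difference does not enter, Slc32a1 was the gene most like Gad1 of the 262 others (root mean square difference 0.054 log2 units, against a median of 0.143). From the side of Slc32a1, Gad1 was 8th, behind C2cd2 (0.029), Slc8a3 (0.033) and Med16 (0.037) among others. For Sst, Eno1 stayed nearest (0.038). The recovered animal lowest for Gad1 and Slc32a1 was animal 23, and the recovered animal lowest for Sst was the one titled 6. By their description codes these ipsilesional and contralesional libraries are 1 animal, and by their titles they are not.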
